A study of Mus musculus with 12 samples.

Results

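The genes described here are 6 members of the STAT transcription factor family, Stat2, Stat3, Stat4, Stat5a, Stat5b and Stat6. They were chosen by gene symbol from a table of 51826 mouse genes, of which 15038 passed the filter on low counts. All 6 members passed it, Stat4 through its level in the BCR-ABL1 lines. STAT proteins wait in the cytoplasm until a cytokine receptor is engaged. A JAK kinase bound to the receptor then phosphorylates them, and they pair up, enter the nucleus and switch on target genes. In B cell precursors the IL7 receptor signals through STAT5A and STAT5B, and the oncogenic kinase BCR-ABL1 can phosphorylate STAT5 without a cytokine. RNA levels, which are given here, do not show how much STAT protein is phosphorylated.

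The data are RNA counts from 12 lines of pre-B cells, B lymphocyte precursors grown from C57BL/6 bone marrow. Cells from each of 2 mice gave 3 lines that received an empty vector (EV) and 3 that received BCR-ABL1, made in separate experiments. Marrow was kept with IL7 for 7 days before the vectors were added, and IL7 was present for 48 h afterwards. IL7 was then taken away for 1 week from the BCR-ABL1 lines only, whereas EV lines stayed in IL7 and were sorted for the GFP marker of the vector. BCR-ABL1, the loss of IL7 and the sort of EV cells therefore cannot be told apart in any comparison below. Lines are named by mouse and letter, so that EV 2C is an EV line of mouse 2. Levels are given as CPM, that is, counts scaled by the TMM method to a common library size.

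Total counts lay between 34791011 and 66011225 per line. EV line 2C stood apart from the other EV lines of mouse 2, with a chi-square statistic per gene of 336 and 500 against them, where the other replicate pairs had 10.3 to 88.6. EV 2C is therefore left out in a second calculation for the members and for counts of called genes. Values of single pathway genes are given with it only. The 9 B lineage markers, Cd79a, Cd79b, Vpreb1, Igll1, Pax5, Ebf1, Blnk, Cd22 and Rag1, summed to 2173 to 4377 CPM with EV and to 2422 to 3085 CPM with BCR-ABL1, and only Cd22 among them was called lower. The lines thus carried the markers of their label in both conditions. In bulk RNA, fewer cells of one type and less RNA per cell cannot be told apart.

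The first question was whether the supply of STAT mRNA differs between the conditions. The conditions were set against each other with the quasi-likelihood fit of edgeR and its glmTreat test for a change of more than 1.5-fold, and a gene was called at a false discovery rate (FDR) under 0.05 over all tested genes. Of the 6 members 1 was called, Stat4, which was higher in BCR-ABL1 lines. Stat4 passed the filter on low counts through its BCR-ABL1 levels, which favours a call of higher and a lack of overlap. Over all tested genes 12.5% were called in either direction, 5.99% higher and 6.49% lower. The log2 fold changes of the other members lay between -0.47 for Stat6 and 0.07 for Stat5b, all with FDR = 1 by edgeR. By the test against no change, which 48.5% of all tested genes passed, Stat6 was called in addition. Levels of 2 of the 6 members, Stat4 and Stat6, did not overlap between the conditions, as was the case for 25.6% of all tested genes.

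**Figure D1:**
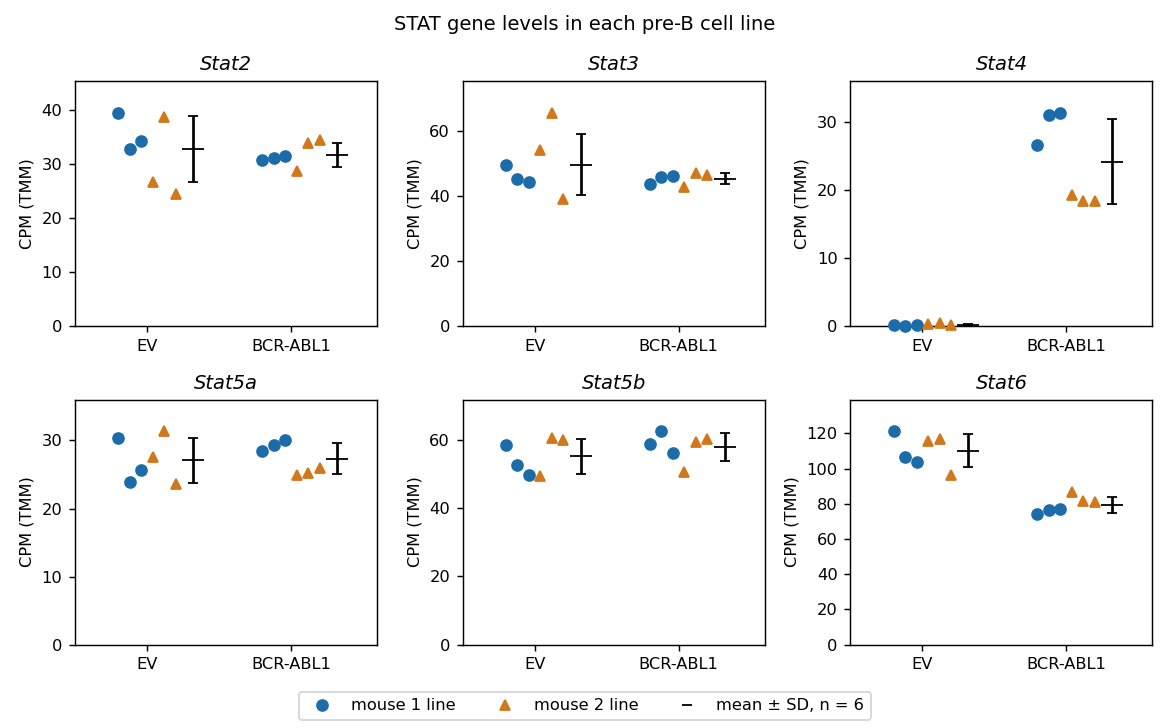
Level of each STAT gene in every line, in TMM-scaled CPM on a linear axis from 0, with circles for mouse 1 lines, triangles for mouse 2 lines and bars for mean ± SD of 6 lines. Stat4 is at 0.437 CPM or less with EV and at 18.4 CPM or more with BCR-ABL1, the Stat6 groups stand apart, and the other 4 genes overlap.

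Stat4 encodes the STAT best known for passing on the IL12 signal in T and NK cells. In GRCm38 it spans 51987148 to 52107189 of chromosome 1, on the plus strand. In EV lines 1A, 1B and 1C it had 6, 3 and 6 counts, and in EV lines 2A, 2B and 2C it had 10, 22 and 10 counts. In BCR-ABL1 lines 1A, 1B and 1C it had 1574, 1486 and 1380 counts, and in 2A, 2B and 2C it had 1001, 1207 and 888 counts. EV line 1B was at the floor of 3 counts and the other EV lines were not far above it, whereas the BCR-ABL1 lines all had 888 counts or more. Mean levels were 0.195 ± 0.149 CPM for EV and 24.2 ± 6.26 CPM for BCR-ABL1 (SD, n = 6 each), a ratio of 124. On the log2 scale the fold change was 7.00 with a standard error of 0.41 (FDR = 3.45e-06 by edgeR). An exact two-sided permutation test of log2 CPM over all 924 labelings gave p = 0.00216, the smallest value these labelings allow.

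The size of the Stat4 difference depended on the mouse. In mouse 1 Stat4 ranged from 0.0433 to 0.113 CPM with EV and from 26.7 to 31.4 CPM with BCR-ABL1. In mouse 2 these ranges were 0.180 to 0.437 CPM and 18.4 to 19.3 CPM. Both ends of the comparison moved, since EV levels were lower and BCR-ABL1 levels higher in mouse 1, with no overlap between the mice in either condition. The log2 fold change was 8.50 in the lines of mouse 1 alone and 5.93 in those of mouse 2 alone. The interaction of mouse and condition was -2.56 on the log2 scale (mouse 2 minus mouse 1, FDR = 0.00179 by edgeR's glmQLFTest), and 16.9% of all tested genes passed the same test. For the other 5 members the interaction had FDR between 0.341 and 0.620 over all 12 lines. Since the EV counts of mouse 1 were 3 to 6, the mouse 1 fold change is the less certain of the values for Stat4.

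A stretch upstream of each Stat4 transcription start is shown because Stat4 is the member with the changed level. The stretches were read from RefSeq promoter windows of GRCm38.p6, which hold 250 bases before and 50 after a start and list 2 starts for Stat4, both on the plus strand. The stretch before the first start lies at chr1:51987028-51987147 and covers positions -120 to -1 from it, and that before the second lies at chr1:52008110-52008189 and covers positions -130 to -51. Capitals mark a match to the core of the interferon-stimulated response element (ISRE), taken as a pair of GAAA motifs with 2 free bases between them, which was added to the search after the values were seen.
Stat4 first start: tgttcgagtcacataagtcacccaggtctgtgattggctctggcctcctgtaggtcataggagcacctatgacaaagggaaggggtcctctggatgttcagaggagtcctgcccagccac
Stat4 second start: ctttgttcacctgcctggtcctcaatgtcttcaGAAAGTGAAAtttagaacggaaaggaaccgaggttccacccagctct
The match at the second start begins at position -97 from that start. Counts per gene do not show which start was used. Neither window of Stat4 held TTCNNNGAA, the palindrome that STAT dimers bind, or the same palindrome with 4 free bases, the wider spacing favoured by STAT6.

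The same search was made in the windows of all 6 members, on both strands. TTCNNNGAA was found in 0 of the 6 members, against 9.55% of 27025 genes with a window. The wider palindrome was found in Stat2 alone, against 8.01% of all genes, and the ISRE core in Stat2 and Stat4, against 3.99% of all genes. A match is a string of letters and no measured binding site.

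Stat6 encodes the STAT that acts below the IL4 and IL13 receptors, and it had the highest level per kb of exon of the 6 genes in every line. It lies on chromosome 10 from 127642986 to 127660957, on the plus strand. Its levels in EV lines 1A, 1B and 1C were 121, 107 and 104 CPM, and in EV lines 2A, 2B and 2C they were 116, 117 and 96.3 CPM. In BCR-ABL1 lines 1A, 1B and 1C they were 74.0, 76.6 and 76.9 CPM, and in 2A, 2B and 2C they were 86.7, 81.3 and 81.0 CPM. All 6 BCR-ABL1 lines were below all 6 EV lines. The means were 110 ± 9.41 and 79.4 ± 4.54 CPM (SD, n = 6 each), and the log2 fold change was -0.47 (standard error 0.06). This difference did not pass the test for more than 1.5-fold (FDR = 1) but passed the edgeR test against no change (FDR = 0.000176), which 25.9% of all tested genes passed in the lower direction. In mouse 1 the log2 fold change was -0.53 and in mouse 2 it was -0.39, and the interaction was not past the threshold (FDR = 0.524). Stat6 was thus lower with BCR-ABL1 in the lines of either mouse.

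Stat2 encodes the STAT that works with IRF9 below the type I interferon receptor, and Stat3 the one used by receptors of the IL6 and IL10 families. Stat2 lies on chromosome 10 from 128270559 to 128292849, on the plus strand, 609601 bases from Stat6. Its levels were 39.4, 32.8, 34.2, 26.6, 38.7 and 24.5 CPM in EV lines 1A to 2C, and 30.6, 31.0, 31.3, 28.6, 33.9 and 34.4 CPM, in the same order, with BCR-ABL1. The EV lines spread around the BCR-ABL1 lines on both sides. The log2 fold change was -0.05 (standard error 0.12), with an exact permutation p of 0.831. In mouse 1 it was -0.18 and in mouse 2 it was 0.12, so that the sign of Stat2 is not settled by these lines. Without EV line 2B the mouse interaction of Stat2 reached 0.53 (FDR = 0.0265 by edgeR), whereas with all lines it was 0.30 (FDR = 0.414).

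The stretch of the Stat2 window that held both matches is shown because 2 of the 3 motifs fell next to each other there, at chr10:128270258-128270317 on the plus strand of GRCm38.p6. Capitals mark TTTCAGTTTC, the reverse strand form of the ISRE core, at position -222 and TTCCCTAGAA, the wider palindrome, at position -210.
Stat2: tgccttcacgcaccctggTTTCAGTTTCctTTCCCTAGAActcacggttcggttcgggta
The Stat2 level overlapped between the conditions, as given above.

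Stat3 lies on chromosome 11 from 100885098 to 100939540, on the minus strand. Its levels were 49.4, 45.3, 44.1, 54.2, 65.5 and 39.2 CPM in EV lines 1A to 2C and 43.6, 45.9, 46.2, 42.8, 47.0 and 46.6 CPM with BCR-ABL1. The log2 fold change was -0.13 (standard error 0.11), with an exact permutation p of 0.377. The BCR-ABL1 lines were close together, with a coefficient of variation of 3.78%, whereas the EV lines had 18.7%, with EV 2B highest and EV 2C lowest. Without EV line 2C the mouse interaction of Stat3 was -0.36 (FDR = 0.0319 by edgeR), against -0.19 (FDR = 0.620) with it. EV 2C also had the lowest EV level of Stat2, Stat5a and Stat6, and without it the log2 fold changes of these were -0.12, -0.02 and -0.50. None of these omissions changed a call for more than 1.5-fold among the members.

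Stat5a and Stat5b encode the STAT proteins on which the IL7 signal in pre-B cells depends. They lie 8626 bases apart on chromosome 11, Stat5b from 100780731 to 100850724 on the minus strand and Stat5a from 100859351 to 100885169 on the plus strand. Stat5a had 30.4, 23.9, 25.7, 27.6, 31.3 and 23.6 CPM in EV lines 1A to 2C and 28.4, 29.4, 30.1, 24.9, 25.2 and 26.0 CPM with BCR-ABL1. Stat5b had 58.5, 52.8, 49.9, 49.6, 60.6 and 60.2 CPM with EV and 58.8, 62.6, 56.1, 50.6, 59.6 and 60.5 CPM with BCR-ABL1. For both genes the ranges of the conditions lay over each other. The log2 fold change was 0.01 (standard error 0.09, exact permutation p = 0.835) for Stat5a and 0.07 (standard error 0.07, exact permutation p = 0.333) for Stat5b. In the BCR-ABL1 lines Stat5a was higher in mouse 1 (lowest line 28.4 CPM) than in mouse 2 (highest line 26.0 CPM), while its interaction of mouse and condition did not pass the threshold (FDR = 0.341).

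Reads of the STAT5 pair can be hard to assign, so the pair was also taken as a whole. Of all distinct windows of 150 bases in the annotated transcripts, 175 were identical in Stat5a and Stat5b. This is 2.21% of those of Stat5a and 3.16% of those of Stat5b, and no other pair of the 6 genes shared any. Divided by exon length, the summed STAT5 level was 13.8 ± 1.16 CPM per kb in EV lines and 14.3 ± 0.918 CPM per kb in BCR-ABL1 lines (SD, n = 6 each), with ranges of 12.6 to 15.3 and 12.6 to 15.4 CPM per kb. The ratio of Stat5a to Stat5b was 0.382 ± 0.0458 in EV lines and 0.367 ± 0.0327 in BCR-ABL1 lines (SD, n = 6 each, exact permutation p = 0.558). No difference in STAT5 mRNA was detectable between these lines. Stat5a and Stat3 run tail to tail and overlap by 72 bases on opposite strands, and Stat6 overlaps Nab2 in the same way. Whether strand was used in counting is not given in the sources used here, so counts in such an overlap are uncertain.

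**Figure D2:**
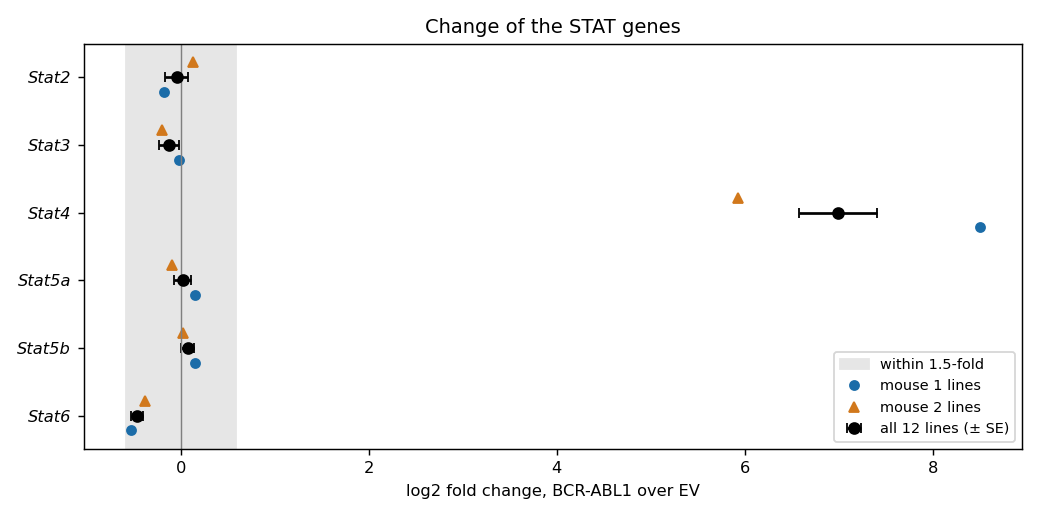
Log2 fold change of each STAT gene, BCR-ABL1 over EV, as black points for all 12 lines with standard error, circles for mouse 1 lines alone and triangles for mouse 2 lines alone, with changes within 1.5-fold shaded. Stat4 lies at 8.50 and 5.93 in the lines of mouse 1 and mouse 2, and the other 5 genes lie in the shaded band.

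Levels of different genes were compared as CPM per kb of merged exon. In EV lines the order was Stat6 (25.0 ± 2.14), Stat5b (9.98 ± 0.923), Stat2 (5.52 ± 1.03), Stat3 (5.21 ± 0.975), Stat5a (3.80 ± 0.457) and Stat4 (0.0505 ± 0.0386), each in CPM per kb (SD, n = 6). Neighbours in this order overlapped for Stat2 and Stat3 and for Stat3 and Stat5a, and were separate otherwise. In BCR-ABL1 lines the order was Stat6 (18.0 ± 1.03), Stat5b (10.5 ± 0.759), Stat4 (6.25 ± 1.62), Stat2 (5.34 ± 0.367), Stat3 (4.76 ± 0.180) and Stat5a (3.83 ± 0.317). Here Stat4 overlapped Stat2, and Stat2 overlapped Stat3. Stat4 was last in every EV line. Its place above Stat2 and Stat3 with BCR-ABL1 is that of the mean over both mice, since in lines 2B and 2C Stat4 (4.74 and 4.76 CPM per kb) lay below Stat3 (4.94 and 4.89) and Stat2 (5.71 and 5.81).

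The summed level of the 6 genes was 49.6 ± 4.40 CPM per kb in EV lines and 48.7 ± 1.54 CPM per kb in BCR-ABL1 lines (SD, n = 6 each), with overlapping ranges. Without Stat4 the sum was 49.5 ± 4.38 and 42.5 ± 1.02 CPM per kb (SD, n = 6 each), and these groups did not overlap (log2 difference -0.22). As a share of the sum, Stat4 was 0.0996% in EV lines and 12.8% in BCR-ABL1 lines, and Stat6 was 50.5% and 37.1%. Neither of these shares overlapped between the conditions, whereas those of Stat2, Stat3, Stat5a and Stat5b did. Shares add up to 100%, so a gain in one gene lowers the others by construction.

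**Figure D3:**
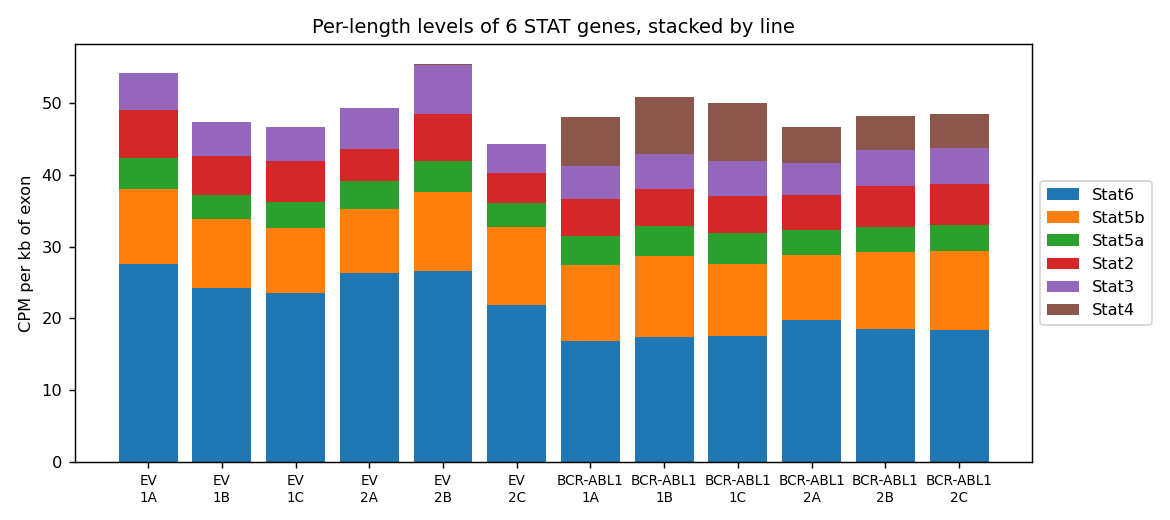
Per-length levels of the 6 STAT genes in each line, stacked, in CPM per kb of merged exon on an axis from 0. The stacks reach 44.3 to 55.5 CPM per kb in EV lines and 46.6 to 50.9 CPM per kb in BCR-ABL1 lines, and only the latter show a visible Stat4 segment.

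For each member the 3 genes with the most similar pattern over the 12 lines were sought by Pearson's r of log2 CPM among all tested genes. The lines share 2 mice and fall into 2 conditions, so these values describe the pattern and carry no test. Stat4 was followed most closely by Gm17767 (r = 0.995), Trem1 (0.995) and Rnase12 (0.994), which had log2 fold changes of 7.36, 5.61 and 7.75. Stat6 was followed by Phospho2 and Gm10643 (both 0.983) and Ercc1 (0.980), whose log2 fold changes were -0.60, -0.73 and -0.49. Stat3 was followed by Ceacam1 (0.969), Slc43a2 (0.968) and Gm14167 (0.964), and Stat5a by Fermt3 (0.971), Ptp4a3 (0.908) and Pgghg (0.870). Stat2 was followed by Gm37716 (0.928), Ahnak (0.923) and Myo1c (0.889), and Stat5b by Card19 (0.881), Slc45a4 (0.811) and Kctd1 (0.769). Among the members themselves, r was -0.90 between Stat4 and Stat6, the pair whose levels separated the conditions, and between -0.35 and 0.64 for every other pair.

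Other genes within 100 kb of a member were looked at for changes around the STAT genes. Of 26 such tested genes given here 1 was higher and 2 were lower, where 12.5% of all tested genes were called in either direction, with a median log2 fold change of 0.07 against -0.02 over all tested genes. The higher one was Apof, an apolipoprotein gene that ends 406 bases from Stat2. It reached 0.0753 CPM at most with EV and ranged from 1.30 to 2.99 CPM with BCR-ABL1 (log2 fold change 6.02, FDR = 1.18e-05 by edgeR), beside a Stat2 level that overlapped between the conditions. Apof passed the filter on low counts through those BCR-ABL1 levels. Coq10a near Stat2 and Atp6v0a1 near Stat3 were lower, with log2 fold changes of -0.98 and -2.06. Beside Stat4, the noncoding gene Gm31812 had a log2 fold change of 0.09 and was not called.

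The members were then set against the other parts of their pathway. The lists hold 85 genes, of which 67 were tested. Of these 21 were called higher with BCR-ABL1 and 6 lower, beside 5.99% higher and 6.49% lower over all tested genes, and their median log2 fold change was 0.44, against -0.02 over all tested genes. Several of the 21, such as Csf2rb2, Lifr and Ifit1, were near 0 in most EV lines. These passed the filter on low counts through their BCR-ABL1 levels, which favours a call of higher. Without EV line 2C the counts were 24 and 7. The interaction of mouse and condition passed the threshold for 24 of the 67 genes, beside 16.9% of all tested genes. Of the 24, 13 were called higher and 0 called lower over all lines, and for 22 of the 24 the change was larger in mouse 1. The same counts over all genes past the interaction test were not made. Over all tested genes, 2512 were called higher in mouse 1 lines alone and 614 in mouse 2 lines alone. A larger change in mouse 1 is therefore not read as particular to these lists.

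**Figure D4:**
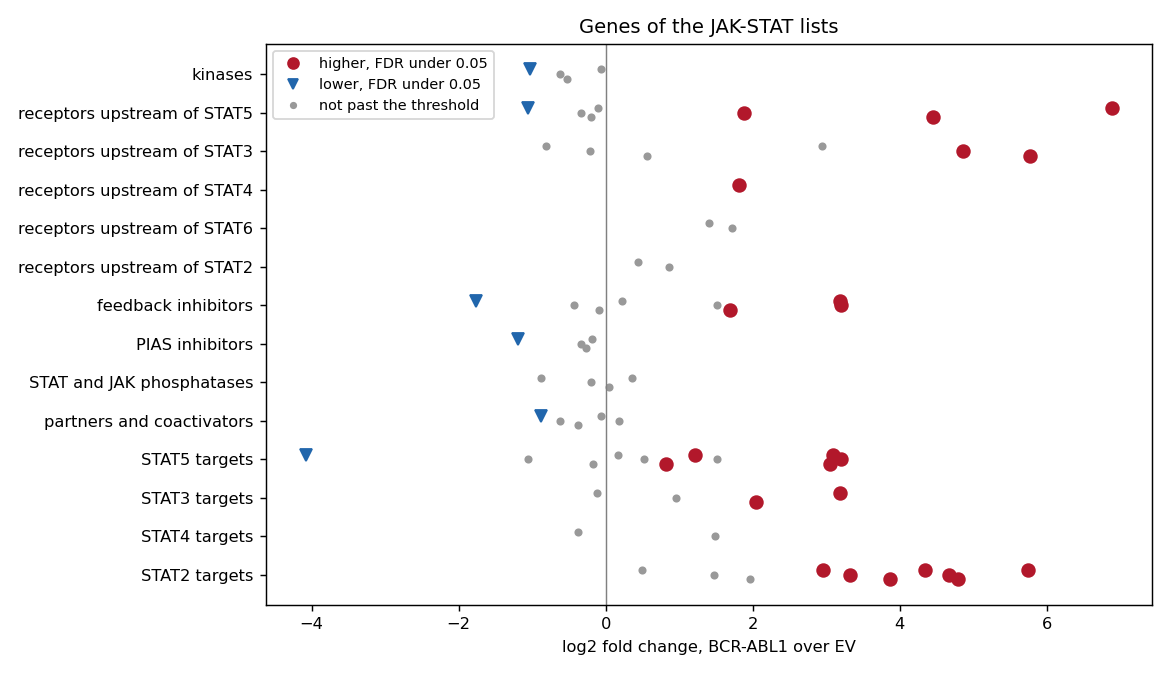
Log2 fold change, BCR-ABL1 over EV, of each tested gene of the JAK-STAT lists, one row per list, with red circles for genes called higher, blue triangles for genes called lower and grey points for the rest. All called genes among STAT2 targets lie on the right, and the called genes among kinases, PIAS inhibitors and coactivators lie on the left.

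The kinases listed were those of the JAK family alone, and none of them was called higher. Over all tested genes 5.99% were called higher and 6.49% lower. Of 4 JAK family genes 1 was lower, Jak3, the partner of the common gamma chain, at -1.04 (FDR = 0.00198 by edgeR). Jak2 and Tyk2 had log2 fold changes of -0.62 and -0.53 with no overlap between the conditions but did not pass the 1.5-fold test, and Jak1 had -0.07. Tyk2, which serves STAT4 and STAT2 below the IL12 and type I interferon receptors, ranged from 52.2 to 66.3 CPM with EV and from 37.7 to 41.9 CPM with BCR-ABL1.

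Several receptor genes were called, where 5.99% of all tested genes were called higher and 6.49% lower. Among receptors upstream of STAT5, 7 of 9 were tested, 3 were higher and 1 was lower. The lower one was Il7r (-1.06), which EV cells need for growth. The higher ones were Il3ra (1.87), Csf2rb (4.45) and Csf2rb2 (6.89), chains of the IL3 receptor family. Csf2rb and Csf2rb2 are near-identical copies, so the split of reads between them is uncertain. Among receptors upstream of STAT3, 6 of 7 were tested and 2 were higher, Il10ra (5.77) and Lifr (4.86). Il10ra was at 3.95 CPM or less in EV lines and at 60.5 CPM or more in BCR-ABL1 lines. Lifr overlapped between the conditions, with 16.9 to 19.1 CPM under BCR-ABL1 in mouse 2 but only 1.27 to 3.48 CPM in mouse 1. Il6st, the signal chain shared by the IL6 family, had a log2 fold change of 2.94 that was not called (FDR = 0.0773) but was called with mouse as a block (FDR = 0.0329). With that block 14.7% of all tested genes were called, 7.49% higher and 7.18% lower.

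Receptors for STAT4 had low counts. Of Il12rb1, Il12rb2 and Il23r only Il12rb1 was tested. Its range was 0.397 to 1.34 CPM with EV and 1.75 to 5.50 CPM with BCR-ABL1, with a log2 fold change of 1.81 (FDR = 0.0141 by edgeR). As for Stat4, every BCR-ABL1 line of mouse 1, the lowest at 3.98 CPM, was above every one of mouse 2. Il12rb2, the chain to which STAT4 docks, reached 0.187 CPM at most, and Il23r 0.153 CPM. The level of Stat4 in BCR-ABL1 lines therefore stood beside a low level of 1 of the IL12 receptor chains and near-background counts of the other.

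Receptors for STAT6 had positive values beside the lower level of Stat6. Il4ra had a log2 fold change of 1.40 (FDR = 0.0715) and Il13ra1 one of 1.72 (FDR = 0.199), neither of them called over all lines without a block, and both were called with mouse as a block (FDR = 0.00748 and 0.0217 by edgeR). With EV, Il4ra ranged from 2.93 to 3.58 CPM in mouse 1 and from 5.89 to 15.4 CPM in mouse 2, and with BCR-ABL1 the range over both mice was 14.6 to 20.5 CPM. The type I interferon receptor genes Ifnar1 and Ifnar2 above Stat2 had log2 fold changes of 0.44 and 0.85 and were not called. In mouse 1 Ifnar2 went from at most 10.4 CPM to at least 35.4 CPM, whereas in mouse 2 the ranges were 23.9 to 30.8 CPM with EV and 29.9 to 30.0 CPM with BCR-ABL1.

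Genes that hold STAT signals in check went both ways, where 5.99% of all tested genes were called higher and 6.49% lower. Of 8 feedback inhibitors 3 were higher, Cish (3.19), Socs1 (1.68) and Socs3 (3.19), and Socs5 was lower (-1.77). Socs1 overlapped between the conditions, with a log2 fold change of 3.09 in mouse 1 alone and 0.73 in mouse 2 alone. For Cish these values were 5.81 and 2.04, and for Socs3 4.70 and 2.66. Cish, a direct STAT5 target, ranged from 0.659 to 1.01 CPM in mouse 1 with EV, reached 2.09, 3.62 and 19.0 CPM in EV lines 2B, 2A and 2C, and ranged from 22.8 to 54.6 CPM with BCR-ABL1. Socs2 was called with mouse as a block but not over all lines without it (log2 fold change 1.51, FDR = 0.205 without the block and 0.0355 with it), and its level in EV 2C, 380 CPM, was above that of every BCR-ABL1 line. Socs4, Socs6 and Socs7 had log2 fold changes of -0.09, 0.22 and -0.43. Among PIAS inhibitors, which bind STAT proteins in the nucleus, Pias3 fell by 1.19, while Pias1, Pias2 and Pias4 had -0.34, -0.19 and -0.26. Of the phosphatase genes Ptpn1, Ptpn2, Ptpn6 and Ptpn11 none was called, and Ptpn6 had the largest value, -0.88 (FDR = 0.0694). Of 5 partners and coactivators Ncoa1 was lower (-0.88), and Irf9, the partner of STAT2, had -0.06.

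Some known STAT5 targets were called while Stat5a and Stat5b were not. Over all tested genes 5.99% were called higher and 6.49% lower, and the lists were chosen with earlier results known. Of 11 targets 5 were higher, Cish, Pim1 (3.09), Ccnd2 (3.05), Ccnd3 (0.82) and Osm (1.22), and Bcl6, a gene that STAT5 represses, was lower (-4.08). The remaining targets were not called, with Socs2 at 1.51, Bcl2l1 at 0.52, Myc at 0.17, Mcl1 at -0.17 and Il2ra at -1.05. Pim1, a survival kinase, ranged with EV from 47.3 to 49.6 CPM in mouse 1 and from 108 to 177 CPM in mouse 2, and with BCR-ABL1 from 812 to 870 CPM. Bcl6 ranged from 39.8 to 54.0 CPM in 5 EV lines, with EV 2C at 11.7 CPM, and from 1.48 to 2.97 CPM with BCR-ABL1. Among the 11 targets, EV line 2C had the highest EV level of Cish, Socs2, Ccnd2, Myc and Osm and the lowest of Bcl6, Il2ra and Ccnd3. For Pim1, Bcl2l1 and Mcl1 it lay between the other EV lines, of which EV 2B was highest. EV 2C also had the lowest Il7r level, while its Stat5b level was within the range of the other lines. Of the STAT3 targets 4 of 6 were tested and 2 were higher, Socs3 and Fos (2.05). Targets of STAT4 and STAT6 were mostly too low to test. Of 6 STAT4 targets 2 were tested, Furin and Hlx, and neither was called over all lines. In mouse 1 Hlx ranged from 0 to 0.0188 CPM with EV and from 1.32 to 1.54 CPM with BCR-ABL1. In mouse 2 its ranges were 0.457 to 1.10 CPM and 0.597 to 0.700 CPM (interaction FDR = 3.47e-05 by edgeR). For Furin the interaction had FDR = 0.112. Ifng reached 0.101 CPM at most in any EV line and was at 0 counts in every BCR-ABL1 line. None of the 5 STAT6 targets was tested.

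Promoter stretches of Socs3 and Bcl6 are shown as examples of called STAT targets that held the dimer palindrome. They lie at chr11:117969492-117969540 and chr16:23988942-23988990 of GRCm38.p6, both on the minus strand, and capitals mark TTCNNNGAA.
Socs3: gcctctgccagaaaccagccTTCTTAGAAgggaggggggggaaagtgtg
Bcl6: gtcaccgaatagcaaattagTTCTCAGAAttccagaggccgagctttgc
Among the 7 STAT5 targets with a window, 2 held this palindrome, Cish and Bcl6, against 9.55% of all genes with a window. It was also found in Ifng, Il18r1 and Ccl17, targets of STAT4 or STAT6 that were not tested for a change. The lists were written of known STAT targets, so these counts are no independent result.

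Interferon-type targets of STAT2 had low levels. Of 12 genes 10 were tested and 7 were higher, Ifit1, Ifit3, Mx1, Mx2, Oas1a, Oas2 and Usp18, although Stat2 and Irf9 overlapped between the conditions. Like Stat4, these 7 passed the filter on low counts through their levels in the BCR-ABL1 lines. Genes that low with EV could be tested only if they were higher with BCR-ABL1, so the count of 7 is no independent result. With mouse as a block 8 were higher, Isg15 in addition (FDR = 0.0661 without the block and 0.0436 with it, by edgeR). Ifit3, which codes for an antiviral protein, ranged from 0.0722 to 0.215 CPM with EV, and with BCR-ABL1 from 3.91 to 7.12 CPM in mouse 1 and from 1.37 to 1.41 CPM in mouse 2. Ifit1 had at most 2 counts in any EV line, 41 to 64 counts in BCR-ABL1 lines of mouse 1 and 11 to 26 in those of mouse 2. The summed level of the 12 genes ranged from 1.44 to 6.50 CPM with EV and from 6.78 to 30.1 CPM with BCR-ABL1. As with Stat4, the BCR-ABL1 lines of mouse 1 were above those of mouse 2 for each of the 7 genes. The share of all tested genes with such a separation was not counted, so it is not read as particular to them.

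The promoter stretches of Ifit1 and Ifit3 are shown because they carry the same ISRE core as the windows of Stat2 and Stat4, here on the reverse strand. They lie at chr19:34640765-34640833 and chr19:34583353-34583436 of GRCm38.p6, both on the plus strand, and capitals mark the matches.
Ifit1: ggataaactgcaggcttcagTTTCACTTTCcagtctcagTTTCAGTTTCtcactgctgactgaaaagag
Ifit3: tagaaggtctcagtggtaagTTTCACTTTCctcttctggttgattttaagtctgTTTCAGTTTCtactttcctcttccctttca
Of the 8 STAT2 targets with a window 5 held this core, Isg15, Ifit1, Ifit3, Oas1a and Rsad2. The list was written of genes known to respond to interferon, so this share is no independent result.

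Markers of other cell types were measured because Stat4 is best known from T and NK cells. The 10 T and NK markers summed to 0.650 to 2.48 CPM with EV and to 0.477 to 3.99 CPM with BCR-ABL1. Their part in the Stat4 difference was not tested. Of these markers 2 were tested, Cd3d, which was lower, and the NK receptor gene Klrb1c, which was not called over all lines. In mouse 1 Klrb1c ranged from 0.0289 to 0.0921 CPM with EV and from 1.05 to 3.68 CPM with BCR-ABL1. In mouse 2 its ranges were 0.797 to 1.07 CPM and 0.353 to 0.639 CPM. The interaction of mouse and condition for Klrb1c had FDR = 0.000288 by edgeR. The 10 myeloid markers, 0 of them tested, summed to 0.246 to 1.90 CPM with EV and to 0.457 to 0.857 CPM with BCR-ABL1. Mast and basophil markers reached 0.613 CPM with EV and 0.0304 CPM with BCR-ABL1, with Tpsb2 at 0 counts in every line. Erythroid markers reached 1.04 and 0.308 CPM, with Hba-a1 at 0, and stromal markers 1.47 and 0.203 CPM.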

How the data were processed

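RNA of 6 EV and 6 BCR-ABL1 lines was sequenced from stranded total RNA libraries. The authors deposited whole-number counts per gene for all 12 lines, with no normalization and no pooling. Their processing notes name FastQC 0.11.5, Trimmomatic 0.36, TopHat2 2.1.1, Bowtie2 2.3.2, featureCounts 1.5.3, R 3.6.1, edgeR 3.18.1 and GRCm38, without giving roles, options or strand setting. How reads shared by near-identical genes were counted can change the values of Stat5a, Stat5b, Csf2rb and Csf2rb2.

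Symbols, positions and merged exon lengths came from GENCODE M21, which held 51633 of the 51826 identifiers. Counts were analysed in R 4.3.3 with edgeR 4.0.16 (filterByExpr, TMM, quasi-likelihood fit, glmTreat against a 1.5-fold change, Benjamini-Hochberg adjustment over 15038 genes, threshold 0.05), and with DESeq2 1.42.0 as an alternative. The study describes a likelihood ratio fit, which was run as an alternative. Fold changes came from the edgeR fit. Standard errors came from the spread of log2 CPM (prior count 2) between lines, without regard to mouse. Exact permutation tests were two-sided over 924 labelings. The floor of 3 counts covers counting error only, since reads are not independent molecules. Figures were drawn with Python 3.11.15 and matplotlib 3.10.9.

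EV and BCR-ABL1 lines with the same first digit come from the same mouse. Around their group means, such lines had correlations of 0.0853 to 0.240, and lines of different mice -0.203 to -0.0636, so mouse pairs the lines. The main fit and the permutation tests over 924 labelings did not use this pairing. In exact permutation within mouse over 400 labelings, p was 0.005 for Stat4 and for Stat6. For Stat2, Stat3, Stat5a and Stat5b it was 0.82, 0.38, 0.845 and 0.36. No 2 libraries agreed within sampling noise. Lines of one mouse share that animal, so p-values measure the spread between lines.

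The 6 members, the pathway lists and the marker lists were chosen with earlier results of these data known. Named genes are the members, pathway genes that were called or belong to a list of at most 4, the 3 genes most like each member, genes within 100 kb and the markers; others are given as examples and were named after their values were seen. Tests were checked on simulated counts. The alternatives were other normalizations, filters, tests and blocks, each mouse alone and leaving out each line. 1 gene of the family, 1 marker and 1 neighbouring gene are not reported here.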

Additional observations from a re-analysis of the deposited data

Results flagged for a closer look

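The BCR-ABL1 effect on Stat4 differed between the mice by -2.56 on the log2 scale (mouse 2 minus mouse 1, FDR = 0.00179 by edgeR's interaction test), and in either mouse all 3 BCR-ABL1 lines were above all 3 EV lines. Of the 6 members it was the only one past the threshold over all 12 lines, and 16.9% of all tested genes passed. EV counts of Stat4 were 3 to 6 in mouse 1 and 10 to 22 in mouse 2, and the part that such low counts have in the difference was not tested.

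The share of Stat5b in the summed STAT level of EV line 2C, 24.5%, lay far above the other 5 EV lines. Its gap to the nearest line was 0.694 of the range of the EV lines, above Dixon's critical value for 6 samples. Such gaps arise by chance in about 1 in 20 groups, and 28 groups of values were examined. EV 2C had the lowest EV levels of Stat2, Stat3, Stat5a and Stat6.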

How the results depend on the processing

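Stat4 kept its direction and its call in every alternative tried, with a log2 fold change of 5.93 to 8.50 and an FDR of at most 0.000742. With mouse as replicate block it was 7.05 (FDR = 2.8e-06 by edgeR) and with line pair as replicate block 7.13 (FDR = 0.000742), and no member's call for more than 1.5-fold changed under either block. Stat6 passed only the tests against no change, at -0.47 without and -0.47 with the mouse block. The sign of Stat2 turned to 0.12 in mouse 2 alone and that of Stat5a to -0.051 with library totals only, to -0.0052 when 6 lines had to reach 1 CPM and to -0.10 in mouse 2 alone. The share of Stat2 turned to a difference of 0.0528 percentage points without division by length. No scaling moved the median of all genes further than library totals, by -0.0652 (log2).

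Leaving out each line in turn gave log2 fold changes of -0.12 to 0.043 for Stat2, -0.19 to -0.044 for Stat3, 6.77 to 7.44 for Stat4, -0.022 to 0.081 for Stat5a, 0.030 to 0.12 for Stat5b and -0.50 to -0.41 for Stat6. The mouse interaction ranged from 0.18 to 0.53 for Stat2, from -0.36 to -0.0031 for Stat3 and from -2.89 to -2.16 for Stat4, and the number of genes past it from 1892 to 5522, the latter without EV 2C. The difference in share ranged from -0.512 to 0.147 percentage points for Stat2 and from 0.873 to 2.15 for Stat5b. The Stat5b difference was 1.29 with all lines and 2.15 without EV 2C, the one omission with which it passed the threshold of 0.05 by exact permutation.

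Over all genes 901 were higher and 976 lower. These counts were 3389 and 3897 by the test against no change, 3776 and 4092 with the mouse block added to it, 2512 and 1877 in mouse 1 alone, 614 and 408 in mouse 2 alone, and 807 to 1353 and 802 to 1434 with a line left out, the highest without EV 2C. The pathway lists had 31 higher and 17 lower genes by the test against no change and 26 and 6 with the mouse block. The block combined with the test against no change and the lists without EV 2C were chosen after seeing the data, and the causes of these changes were not tested. Low EV counts limit the fold changes of Stat4, Csf2rb2 and Ifit1.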
